A study of Rattus norvegicus with 6 samples.

Results

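The actin, myosin and contractile cytoskeleton genes described here are 44 genes chosen by name for what their proteins do, out of 17093 genes measured. The choice was made with earlier results of these data known. All 44 were found, 42 under their own symbol and 2 (Mkl1 and Mkl2) under the newer symbols Mrtfa and Mrtfb. They fall into 14 genes of the smooth muscle contractile apparatus, 3 genes best known from striated muscle, 15 genes of the non-muscle cytoskeleton, 9 genes for proteins that turn actin filaments over and 3 transcriptional cofactors. RNA came from primary nucleus pulposus cells (the soft centre of each disc of the spine) of male rats, between passages 3 and 6. Serum-starved cells spent 48 h without serum (3 libraries), and control cells 48 h with 10% fetal bovine serum (3 libraries). The labels name no genetic change and no other agent. They do not say whether each library had its own animal or culture, so the p-values reflect the spread among these libraries, which may be technical.

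Actin filaments grow from actin monomers and slide against myosin II, whose activity is set by phosphorylation of its regulatory light chain. Smooth muscle cells and myofibroblasts carry smooth muscle forms of actin, myosin light chain, tropomyosin, transgelin and calponin beside the forms that every cell has. Many of these genes are targets of serum response factor (SRF), which binds the CArG box and is helped by myocardin or by the related MRTF proteins. MRTF proteins are held in the cytoplasm by monomeric actin, and serum is a classical signal that releases them. Cultured cells on stiff plastic commonly form actin stress fibres.

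Values are those deposited, treated as FPKM (scaled by gene length and library total), so levels of different genes can be set side by side. They summed to between 447788 and 473452 in serum-starved and between 522165 and 530095 in control libraries, and the depth in reads is unknown. The contractile and cytoskeletal genes together made up 4.30 ± 0.172% of that sum in serum-starved cells and 4.20 ± 0.0685% in control cells (SD, n = 3 each). Of 15 nucleus pulposus markers listed, Krt19, Noto and Shh were not matched. Of the 12 found, 3 rose (Car3, Foxf2 and Pax1), 6 fell (Acan, Sox9, Krt8, Car12, Foxf1 and Slc2a1) and 3 were too low to be tested. Of all tested genes, 31.7% rose and 29.4% fell. Among the untested markers, Cd24 was at 0.37 to 0.56 in serum-starved and 0.04 to 0.14 in control libraries. The markers summed to 148 to 158 in serum-starved and 283 to 326 in control libraries. Acan and Slc2a1 carried most of that fall, whereas Pax1 and Car3 went against it. Slc2a1 was at 30.7 ± 3.10 in serum-starved and 142 ± 5.08 in control cells (SD, n = 3 each). The changes ran between Car3, 25.4-fold higher, and Car12, 35.3-fold lower, which passed the filter only through the control libraries. Col2a1 (cartilage collagen) was listed at 0 to 0.06 and Krt18 at 0 in all libraries, Acan (aggrecan) at 2.67 to 3.27 in serum-starved and 47.2 to 103 in control libraries, and Pax1 (a disc transcription factor) at 46.2 to 56.3 in serum-starved and 23.6 to 29.7 in control libraries. In bulk RNA, fewer cells of a type and less RNA per cell cannot be told apart.

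Calls went both ways: 13 of the 44 genes rose, 15 fell and 14 missed the threshold, while Actc1 and Myocd were too low to be tested. Genes that reached 1 in 3 or more libraries were tested, and a gene was called at a limma Benjamini-Hochberg adjusted p of at most 0.05. Against this, 31.7% of all 11493 tested genes rose and 29.4% fell, 61.1% in all, so the number of calls among the 42 tested members (66.7%) was near the background. Values of the 2 groups did not overlap for 34 of the 42, against 68.2% of all tested genes. On the log2(value + 1) scale the members' median difference between serum-starved and control cells was -0.13, against 0.03 for all tested genes. The split by role was uneven: 9 of 14 smooth muscle genes rose and 1 fell (median 0.48), 3 of 15 non-muscle genes rose and 7 fell (median -0.23), and of 9 turnover genes 0 rose and 7 fell (median -0.33). Roles were set by protein function with earlier results of these data known, so the split is a description. With values quantile normalized, which gives every library the same distribution, 17 members rose and 10 fell; 9 smooth muscle genes still rose, non-muscle genes split into 5 and 5, and turnover genes into 2 that rose and 4 that fell.

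**Figure D1:**
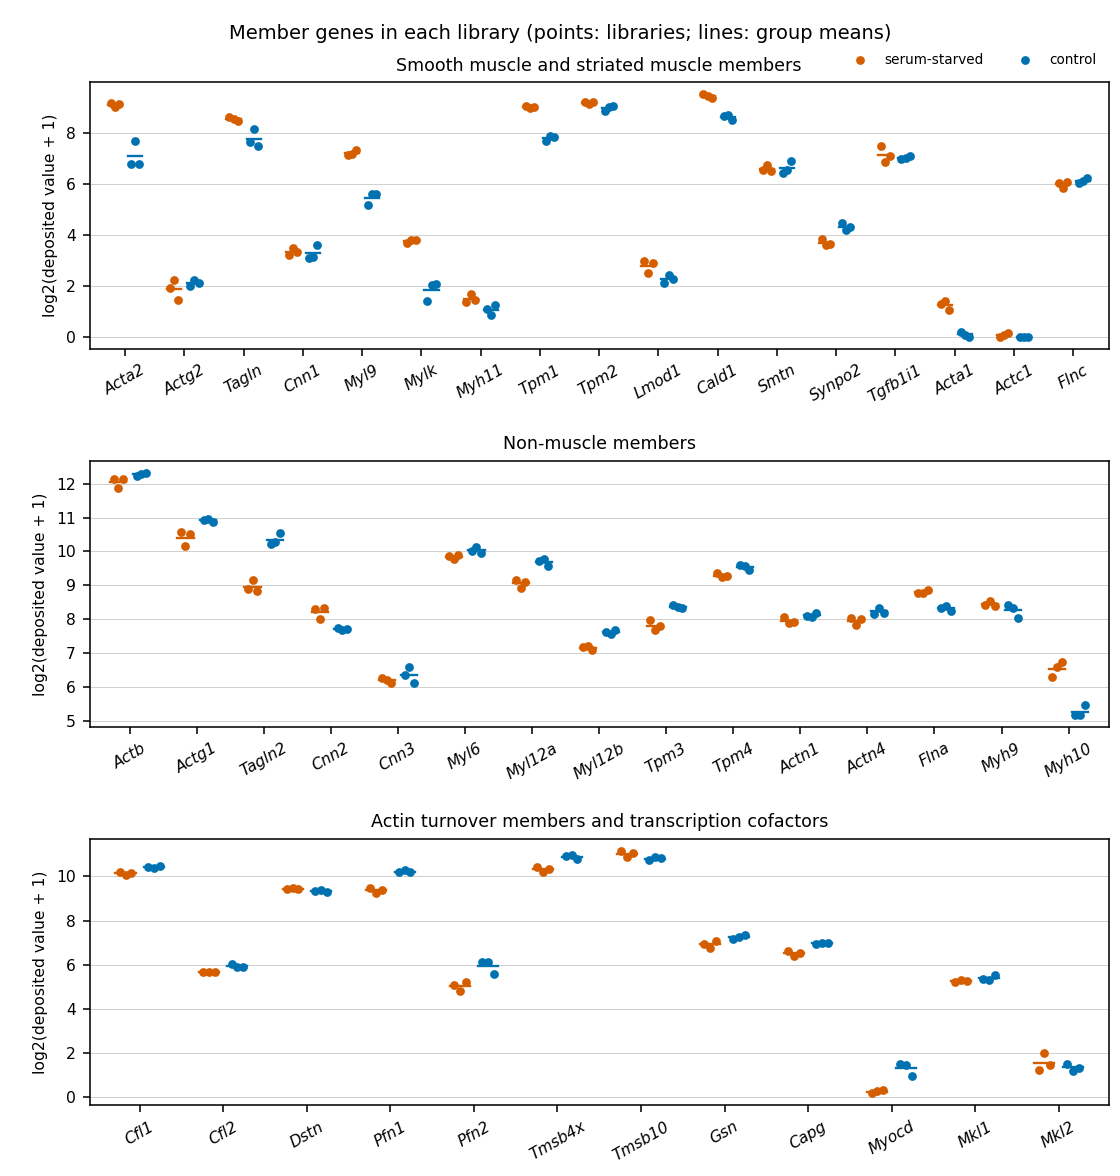
Level of each member gene in each library as log2(deposited value + 1), by role, with serum-starved libraries (orange) left of control libraries (blue), points for libraries and lines for group means. Acta2, Myl9, Mylk, Tpm1 and Myh10 stand clearly higher and Tagln2, Pfn1 and Pfn2 lower in serum-starved libraries, and Actb is the highest member in every library.

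Among the actins, the smooth muscle form rose several-fold while the cytoplasmic forms, which hold most of the signal, were lower or not called. Acta2 (gene ID 81633), the smooth muscle alpha-actin of arterial muscle and myofibroblasts, had 581, 518 and 562 in serum-starved libraries, against 110, 206 and 111 in control libraries. The groups did not overlap, and control replicate 2 stood above the other controls. Acta2 was 3.90-fold higher, with a log2 fold change of 2.02 ± 0.217 (SE; limma, Benjamini-Hochberg adjusted p = 9.38e-05), and it remained called with any one library left out, at 1.87 to 2.31. Actg1 (gene ID 287876), cytoplasmic gamma-actin, had 1529, 1131 and 1447 in serum-starved libraries, against 1953, 1985 and 1876 in control libraries. All 3 serum-starved libraries lay below the controls, 1.42-fold lower on average, with a log2 fold change of -0.51 ± 0.116 (SE; limma adjusted p = 0.00493). A near-copy that RefSeq names Actg1l1 (LOC100361457 in the files) shares sequence with Actg1, so their split is uncertain; the sum of both was 2102 ± 254 in serum-starved and 3010 ± 83.1 in control cells (SD, n = 3 each), 1.43-fold lower. Actb (gene ID 81822), cytoplasmic beta-actin and often a reference gene, had 4528, 3764 and 4490 in serum-starved libraries, against 4780, 5037 and 5121 in control libraries. These groups did not overlap either, but the log2 fold change of -0.23 ± 0.1001 (SE) did not pass (limma adjusted p = 0.0765), with a 95% interval of -0.46 to 0.0003; without serum-starved replicate 1 it was -0.28 and passed (adjusted p = 0.0481), and with quantile normalization it was 0.07.

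The other actins were low. Actg2, the gamma-actin of visceral smooth muscle, had 2.77, 3.72 and 1.74 in serum-starved libraries, against 3.03, 3.70 and 3.36 in control libraries, which overlapped (limma adjusted p = 0.255; -0.44 with adjusted p = 0.0479 without serum-starved replicate 2). Acta1, the skeletal muscle alpha-actin, had 1.42, 1.63 and 1.07 in serum-starved libraries, against 0.14, 0.05 and 0 in control libraries. It rose by a log2 fold change of 1.15 ± 0.126 (SE; limma adjusted p = 0.000104), but it passed the filter only through the serum-starved libraries and had no test once any of them was left out. With a pseudocount of 0.1 in place of 1 its log2 fold change was 3.25. Actc1, cardiac alpha-actin, was listed at 0, 0.05 and 0.09 in serum-starved libraries and at 0 in all control libraries, and was not tested. Summed over the 6 actin genes, leaving out the near-copy Actg1l1, the level was 6188 ± 670 in serum-starved and 7063 ± 197 in control cells (SD, n = 3 each). Acta2 made up 8.98 ± 0.497% of that sum in serum-starved cells and 2.003 ± 0.729% in control cells, a difference for which the exact two-sided permutation test gave p = 0.1, the smallest that 3 against 3 libraries can give. Actb made up 68.9 ± 0.661% in serum-starved and 70.5 ± 1.32% in control cells, and Actg1 22.0 ± 1.09% in serum-starved and 27.4 ± 1.07% in control cells. The omitted Actg1l1 stood at 734 ± 44.1 in serum-starved and 1072 ± 62.1 in control cells (SD, n = 3 each). All these shares depend on leaving it out, and the small difference in the Actb share is uncertain for that reason.

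RefSeq promoters (250 bases before to 50 after each gene's start, GRCr8 build) were matched for 36 of the 44 genes and searched for the CArG box, the SRF binding motif of 10 bases with an A/T core of 6, on both strands (the motif is its own reverse complement). An exact CArG box was present for 4 of the 36 (11.1%: Acta1, Actc1, Actg1 and Cnn2), against 485 of 27457 genes in the table (1.77%). By role these were 0 of 10 smooth muscle, 2 of 3 striated muscle, 2 of 13 non-muscle, 0 of 8 turnover and 0 of 2 cofactor genes. Allowing 1 letter of the core to be G or C, 7 of 36 (19.4%) had a match, of which 2 were smooth muscle genes, against 2769 genes (10.1%). These are matches of letters in a short window, and binding at them was not tested here. Actb, Myl9, Myh11, Capg, Actn4, Myocd, Tagln and Lmod1 had no entry. Of these, Myl9, Myh11, Tagln and Lmod1 are smooth muscle members, so the 0 of 10 above does not cover them. The promoters shown are those of the smooth muscle actin, of a cytoplasmic and a striated actin with an exact match and of the calponin with one. Matches, exact or with 1 such letter, are in capitals, 5' to 3' along the gene's strand.
Acta2 promoter, chr1:241172454-241172753, minus strand: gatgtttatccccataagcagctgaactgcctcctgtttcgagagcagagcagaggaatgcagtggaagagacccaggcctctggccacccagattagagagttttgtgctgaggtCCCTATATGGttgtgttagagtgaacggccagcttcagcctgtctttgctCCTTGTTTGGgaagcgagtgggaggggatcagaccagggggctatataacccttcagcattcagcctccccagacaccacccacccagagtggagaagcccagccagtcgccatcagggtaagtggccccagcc
Actg1 promoter, chr10:106120902-106121201, minus strand: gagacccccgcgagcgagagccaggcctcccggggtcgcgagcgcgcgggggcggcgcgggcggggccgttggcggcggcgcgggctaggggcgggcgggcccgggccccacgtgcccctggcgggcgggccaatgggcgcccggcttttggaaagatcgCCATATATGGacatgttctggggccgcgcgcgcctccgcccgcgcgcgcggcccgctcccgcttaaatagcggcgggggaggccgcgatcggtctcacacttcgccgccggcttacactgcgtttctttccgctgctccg
Acta1 promoter, chr19:68784145-68784444, minus strand: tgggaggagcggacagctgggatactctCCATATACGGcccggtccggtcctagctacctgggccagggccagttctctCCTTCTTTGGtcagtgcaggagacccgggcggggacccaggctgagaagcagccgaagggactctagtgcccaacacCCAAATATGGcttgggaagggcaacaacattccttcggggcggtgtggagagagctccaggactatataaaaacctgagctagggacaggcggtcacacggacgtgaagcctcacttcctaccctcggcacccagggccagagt
Cnn2 promoter, chr7:10370263-10370562, minus strand: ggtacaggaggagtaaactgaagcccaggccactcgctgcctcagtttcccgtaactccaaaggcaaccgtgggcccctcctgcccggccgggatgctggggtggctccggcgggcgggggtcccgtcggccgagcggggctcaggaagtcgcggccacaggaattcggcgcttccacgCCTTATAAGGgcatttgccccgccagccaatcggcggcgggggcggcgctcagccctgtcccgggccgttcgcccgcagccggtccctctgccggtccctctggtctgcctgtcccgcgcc

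The Acta2 window held 2 matches, each with 1 core letter changed, which begin 134 and 84 bases before the start, and no exact one. In the Actg1 window the single match was exact, and it began 90 bases before the start; the Acta1 window held 3, of which 1 was exact. The Cnn2 match, 71 bases before the start, was exact too. Tpm1, Mylk and Myh10 had no match in their windows under either rule.

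Myosin regulatory light chains changed in opposite directions, and the kinase that phosphorylates them rose. Myl9 (gene ID 296313), the smooth muscle regulatory light chain, had 141, 145 and 160 in serum-starved libraries, against 35.5, 48.0 and 47.6 in control libraries. It was 3.40-fold higher without overlap (log2 fold change 1.75 ± 0.118 SE; limma adjusted p = 6.59e-06). The non-muscle regulatory chains Myl12a and Myl12b, near-identical neighbours whose reads may be shared, both fell. Myl12a had 564, 480 and 547 in serum-starved libraries, against 842, 871 and 759 in control libraries (log2 fold change -0.64 ± 0.0882 SE; limma adjusted p = 0.000384). Myl12b had 142, 146 and 136 in serum-starved libraries, against 197, 186 and 202 in control libraries (log2 fold change -0.46 ± 0.0627 SE; limma adjusted p = 0.000347). The 3 regulatory chains summed to 821 ± 43.1 in serum-starved and 1063 ± 49.6 in control cells (SD, n = 3 each), and Myl9 made up 18.1 ± 1.33% of it in serum-starved and 4.12 ± 0.735% in control cells. Mylk (gene ID 288057), myosin light chain kinase, had 11.7, 13.1 and 12.8 in serum-starved libraries, against 1.64, 3.07 and 3.16 in control libraries. That is 4.77-fold higher, the largest ratio of means among called members with a level above 0 in every library (log2 fold change 1.93 ± 0.167 SE; limma adjusted p = 2.84e-05). Myl6, the essential light chain shared by muscle and non-muscle cells, had 939, 869 and 941 in serum-starved libraries, against 1025, 1119 and 988 in control libraries; its log2 fold change of -0.19 did not pass (limma adjusted p = 0.0649), was -0.21 and passed under median-ratio scaling (adjusted p = 0.0409), and turned to 0.18 with quantile normalization (adjusted p = 0.0397).

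Of the myosin II heavy chains, the non-muscle IIB form rose. Myh10 (gene ID 79433), which encodes non-muscle myosin IIB, had 77.0, 95.4 and 104 in serum-starved libraries, against 34.9, 35.2 and 42.9 in control libraries. It was 2.45-fold higher, with no overlap (log2 fold change 1.26 ± 0.123 SE; limma adjusted p = 5.36e-05). Myh9, non-muscle myosin IIA and the most abundant heavy chain, had 338, 369 and 333 in serum-starved libraries, against 337, 322 and 259 in control libraries, which overlapped (log2 fold change 0.19 ± 0.104 SE; limma adjusted p = 0.15). With quantile normalization Myh9 passed at 0.39 (adjusted p = 0.00809). Its value is uncertain, since a second row, Myh9l1, carries the gene ID that RefSeq gives to Myh9 and was listed at 66.3, 0 and 57.3 in serum-starved and 0, 34.2 and 73.1 in control libraries. The sum of both rows was 388 ± 17.5 in serum-starved and 342 ± 12.4 in control cells (SD, n = 3 each), without overlap. Myh11, the smooth muscle heavy chain and the marker most specific to mature smooth muscle, stayed near the filter, at 1.56, 2.23 and 1.68 in serum-starved and 1.12, 0.82 and 1.34 in control libraries. Its rise (log2 fold change 0.43 ± 0.135 SE; limma adjusted p = 0.0226) was lost without serum-starved replicate 2 (adjusted p = 0.0911) or control replicate 2 (adjusted p = 0.0785). Within the sum of Myh9, Myh10 and Myh11, leaving out Myh9l1, Myh10 made up 20.9 ± 2.64% in serum-starved and 11.1 ± 2.64% in control cells, and Myh11 0.412 ± 0.0572% in serum-starved and 0.323 ± 0.108% in control cells (SD, n = 3 each).

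**Figure D2:**
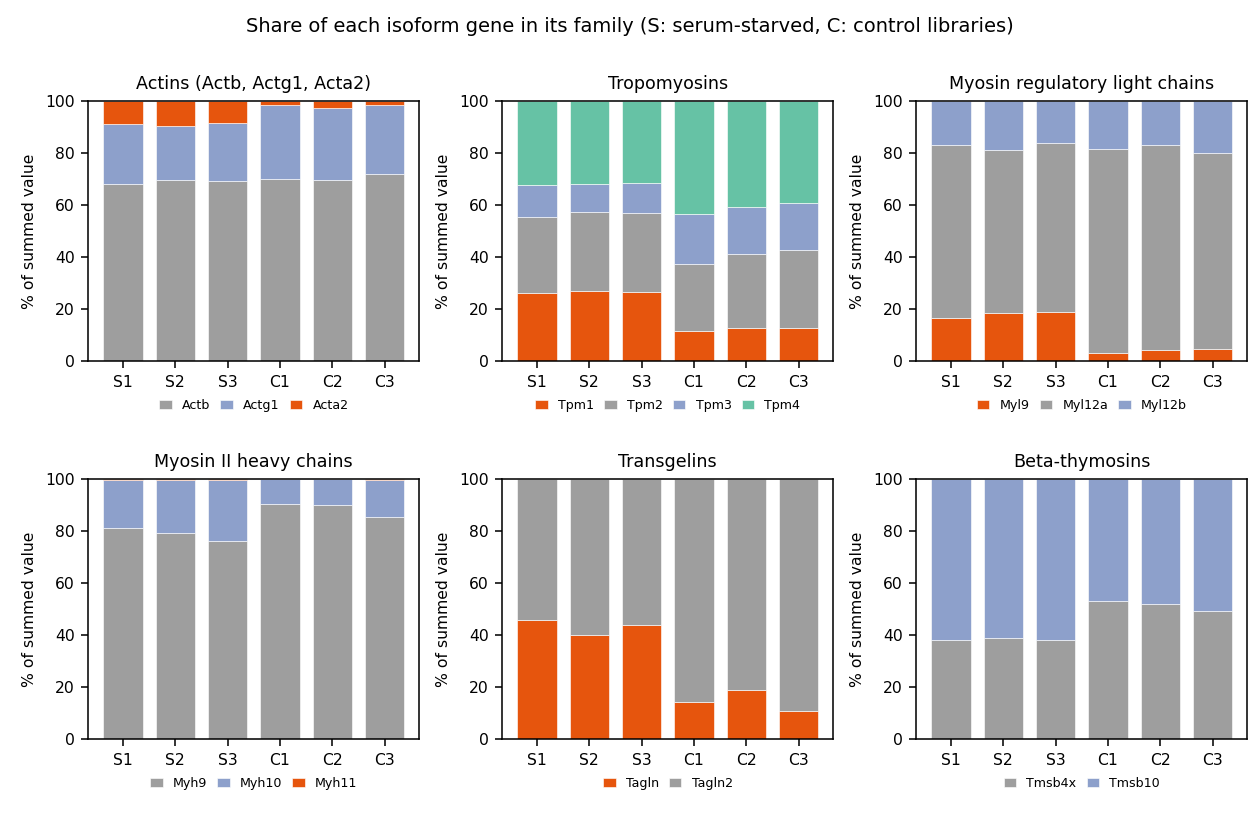
Share of each isoform gene in the summed deposited value of its family, in percent, for serum-starved libraries (S1 to S3) and control libraries (C1 to C3), with Acta2, Tpm1, Myl9, Myh11 and Tagln in orange. Acta2, Tpm1, Myl9 and Tagln take a larger share in all 3 serum-starved libraries than in any control library, as do Myh10 and Tmsb10, while Myh11 is too small to see. The share of Tpm2, also a smooth muscle member but not in orange, overlaps between the groups.

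Among tropomyosins, which lie along actin filaments and gate the binding of myosin and cofilin, Tpm1 rose and Tpm3 fell. Tpm1 (gene ID 24851) had 531, 506 and 516 in serum-starved libraries, against 204, 234 and 227 in control libraries. It was 2.34-fold higher (log2 fold change 1.22 ± 0.0710 SE; limma adjusted p = 2.97e-06). Tpm3 had 248, 202 and 221 in serum-starved libraries, against 337, 329 and 319 in control libraries, and fell 1.47-fold (log2 fold change -0.56 ± 0.0830 SE; limma adjusted p = 0.000563). These 2 genes held with any one library left out, but the other 2 were less firm. Tpm2, the beta-tropomyosin of muscle, had 599, 571 and 590 in serum-starved libraries, against 463, 523 and 541 in control libraries. Its call (log2 fold change 0.21 ± 0.0768 SE; limma adjusted p = 0.0438) held without control replicate 3 alone among the 6 fits with a library left out (adjusted p = 0.0578 to 0.153 in the other 5), and was lost under median-ratio scaling (adjusted p = 0.0649). Tpm4 had 655, 600 and 611 in serum-starved libraries, against 775, 753 and 701 in control libraries (log2 fold change -0.26 ± 0.0722 SE; limma adjusted p = 0.0146). That call was lost without serum-starved replicate 3, control replicate 1 or control replicate 2 (adjusted p = 0.0579, 0.0564 and 0.0507), and with quantile normalization the value turned to 0.12. The summed tropomyosin level was 1950 ± 77.4 in serum-starved and 1802 ± 32.3 in control cells, of which Tpm1 was 26.6 ± 0.423% in serum-starved and 12.3 ± 0.706% in control cells (SD, n = 3 each). The Tpm2 share overlapped, at 30.1 ± 0.566% in serum-starved and 28.2 ± 2.13% in control cells (SD, n = 3 each). Tropomyosin, caldesmon and light chain kinase genes make muscle and non-muscle transcripts from one gene, which values per gene cannot separate.

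The transgelins, small actin-binding proteins, moved apart. Tagln (gene ID 25123), transgelin or SM22-alpha, had 400, 380 and 355 in serum-starved libraries, against 200, 287 and 181 in control libraries. The lowest serum-starved value lay above control replicate 2, which was again the highest control, and the 1.70-fold difference passed (log2 fold change 0.79 ± 0.154 SE; limma adjusted p = 0.00242). Tagln2 (gene ID 304983), its non-muscle relative, had 475, 568 and 452 in serum-starved libraries, against 1191, 1234 and 1494 in control libraries. It was 2.62-fold lower, the largest fall among the tested members (log2 fold change -1.39 ± 0.116 SE; limma adjusted p = 2.36e-05). The sum of both was 877 ± 70.9 in serum-starved and 1529 ± 142 in control cells, while the share of Tagln was 43.2 ± 2.88% in serum-starved and 14.7 ± 4.03% in control cells (SD, n = 3 each).

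Of the calponins, which bind actin and slow myosin, Cnn2 rose and the others were not called. Cnn1, the calponin of differentiated smooth muscle, was low and overlapping, at 8.25, 10.2 and 9.03 in serum-starved and 7.54, 7.74 and 11.2 in control libraries (limma adjusted p = 0.716, 95% interval of the log2 fold change -0.26 to 0.39). Cnn2, the broadly expressed form, had 314, 256 and 319 in serum-starved libraries, against 210, 205 and 208 in control libraries. It was 1.43-fold higher without overlap (log2 fold change 0.51 ± 0.0895 SE; limma adjusted p = 0.00142). Cnn3, the acidic calponin, had 75.6, 72.4 and 67.8 in serum-starved libraries, against 80.2, 94.5 and 68.8 in control libraries, and did not pass (limma adjusted p = 0.231; 0.0308 without control replicate 3).

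Of the remaining smooth muscle genes, 2 rose, 1 fell and 2 did not pass. Cald1 (gene ID 25687), caldesmon, which blocks myosin binding until calcium signals release it, had 735, 708 and 675 in serum-starved libraries, against 412, 414 and 363 in control libraries. It was 1.78-fold higher (log2 fold change 0.83 ± 0.0767 SE; limma adjusted p = 3.94e-05). Lmod1, leiomodin, a filament nucleator of smooth muscle, had 6.82, 4.71 and 6.48 in serum-starved libraries, against 3.26, 4.33 and 3.82 in control libraries, and rose 1.58-fold (limma adjusted p = 0.0097). Synpo2, myopodin, an actin-bundling protein of muscle, went the other way, with 13.2, 11.0 and 11.6 in serum-starved libraries, against 21.4, 17.2 and 18.7 in control libraries. It fell 1.60-fold (log2 fold change -0.63 ± 0.0992 SE; limma adjusted p = 0.000733). Smtn, smoothelin, of contractile smooth muscle, had 91.6, 106 and 91.0 in serum-starved and 85.4, 92.04 and 120 in control libraries, and Tgfb1i1, the focal adhesion adaptor Hic-5, had 179, 116 and 136 in serum-starved and 126, 127 and 138 in control libraries. Both overlapped between the groups (limma adjusted p = 0.845 and 0.491).

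Cross-linkers differed by family. Flna (gene ID 293860), filamin A, which links filaments into networks and to integrins, had 438, 435 and 468 in serum-starved libraries, against 323, 336 and 304 in control libraries. It was 1.39-fold higher (log2 fold change 0.48 ± 0.0680 SE; limma adjusted p = 0.000444). Flnc, the muscle filamin, had 65.4, 57.0 and 67.1 in serum-starved libraries, against 64.7, 68.2 and 74.2 in control libraries, and did not pass (limma adjusted p = 0.213). Actn4, an alpha-actinin that bundles filaments, had 260, 227 and 254 in serum-starved libraries, against 286, 322 and 288 in control libraries. It fell 1.21-fold (log2 fold change -0.27 ± 0.0790 SE; limma adjusted p = 0.0165), a call lost without serum-starved replicate 2 (adjusted p = 0.0535), without control replicate 2 (adjusted p = 0.0677) and with quantile normalization (adjusted p = 0.143). Actn1, its close relative, had 267, 235 and 240 in serum-starved libraries, against 272, 267 and 291 in control libraries. Its log2 fold change of -0.16 did not pass (limma adjusted p = 0.0811), but passed without serum-starved replicate 1 (adjusted p = 0.0319) and under median-ratio scaling (adjusted p = 0.0406).

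**Figure D3:**
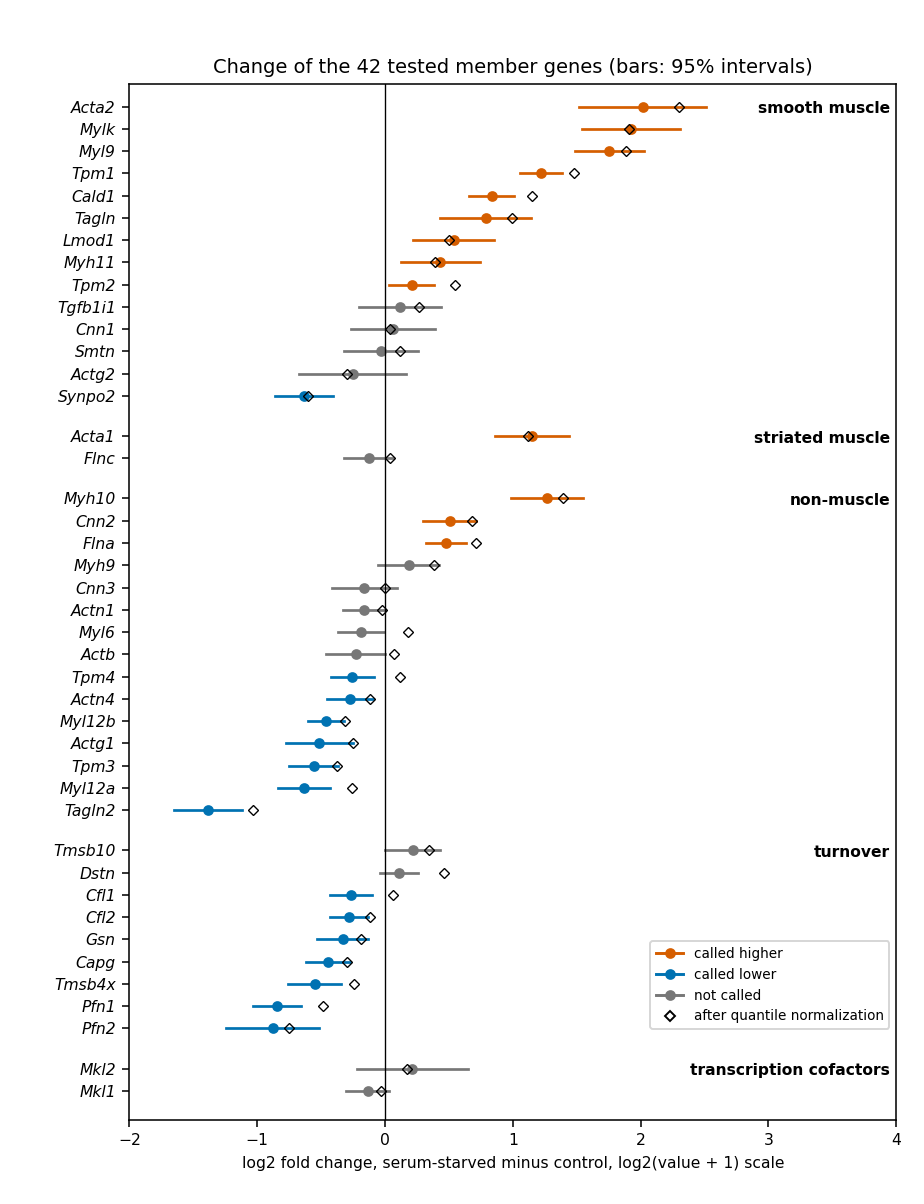
Log2 fold change of each of the 42 tested members on the log2(value + 1) scale, positive where serum-starved cells were higher, as points with 95% intervals coloured by call, with diamonds for the value after quantile normalization. Smooth muscle genes lie mostly to the right, up to 2.02 for Acta2, and non-muscle and turnover genes mostly to the left, down to -1.39 for Tagln2, but with quantile normalization Tpm4, Cfl1, Myl6 and Actb move to the right of 0.

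Genes for actin turnover, which sever filaments, hold monomers or feed them to growing ends, were lower where they were called, although quantile normalization turned Cfl1 to 0.06 and left Cfl2 and Gsn not called. Profilins, which load monomers with ATP and deliver them to formins, changed most. Pfn1 (gene ID 64303) had 711, 601 and 669 in serum-starved libraries, against 1157, 1237 and 1165 in control libraries. It was 1.80-fold lower (log2 fold change -0.85 ± 0.0819 SE; limma adjusted p = 5.13e-05). Pfn2 had 33.1, 27.4 and 36.0 in serum-starved libraries, against 67.8, 67.6 and 46.2 in control libraries, and fell 1.88-fold (log2 fold change -0.88 ± 0.158 SE; limma adjusted p = 0.00155). Neither profilin pair of groups overlapped, and control replicate 3 was the lowest control for Pfn2.

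Of the beta-thymosins, small proteins that sequester actin monomers, Tmsb4x fell and Tmsb10 was not called. Tmsb4x (gene ID 81814) had 1395, 1183 and 1284 in serum-starved libraries, against 1915, 1992 and 1745 in control libraries, and fell 1.46-fold (log2 fold change -0.55 ± 0.0907 SE; limma adjusted p = 0.000982). Tmsb10 (gene ID 50665) had 2264, 1865 and 2102 in serum-starved libraries, against 1687, 1856 and 1810 in control libraries. It was higher in each serum-starved library than in any control, but the log2 fold change of 0.22 ± 0.0931 (SE) did not pass (limma adjusted p = 0.0737). It passed at 0.29 without serum-starved replicate 2 (adjusted p = 0.0182) and at 0.34 with quantile normalization (adjusted p = 0.00126). Their sum was 3364 ± 306 in serum-starved and 3668 ± 158 in control cells, in which Tmsb10 held 61.7 ± 0.463% in serum-starved and 48.7 ± 2.07% in control cells (SD, n = 3 each). Thymosin, cofilin and actin genes have many processed pseudogenes in mammalian genomes, so values of these short, abundant transcripts depend on how shared reads were placed.

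Both cofilins, which sever filaments, fell by small amounts, while destrin, which depolymerizes them, was not called. Cfl1 (non-muscle cofilin) had 1185, 1075 and 1149 in serum-starved libraries, against 1383, 1316 and 1399 in control libraries, and fell 1.202-fold (log2 fold change -0.27 ± 0.0731 SE; limma adjusted p = 0.0128), with the turn to 0.06 under quantile normalization given above. Cfl2 (muscle cofilin) had 49.4, 50 and 50.7 in serum-starved libraries, against 65.5, 58.9 and 58.5 in control libraries, and fell 1.22-fold (limma adjusted p = 0.00583; 0.153 with quantile normalization). Dstn (destrin) had 681, 707 and 691 in serum-starved libraries, against 646, 669 and 617 in control libraries, which did not overlap. Its log2 fold change of 0.11 ± 0.0653 (SE) did not pass (limma adjusted p = 0.185), and was 0.46 and passed with quantile normalization (adjusted p = 0.000312).

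Gsn and Capg, relatives that cap filaments in response to calcium, both fell. Gsn (gelsolin), which also severs them, had 123, 107 and 132 in serum-starved libraries, against 142, 152 and 160 in control libraries, and fell 1.26-fold (limma adjusted p = 0.0108; 0.0892 with quantile normalization). Capg, a capping protein that does not sever, had 98.2, 82.6 and 92.2 in serum-starved libraries, against 122, 127 and 124 in control libraries. It fell 1.36-fold without overlap (log2 fold change -0.45 ± 0.0744 SE; limma adjusted p = 0.00103).

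Ratios between 2 genes of one library do not change when a library is multiplied by a constant, and 21 pairs of related members were compared on them. Serum-starved libraries all lay above control libraries for 12 pairs and below for 2, and they overlapped for 7. The exact two-sided permutation test cannot give less than p = 0.1 with 3 against 3 libraries, so no pair could pass, and after Benjamini-Hochberg adjustment over the 21 pairs these 14 had p = 0.15. The ratio of Acta2 to Actb was 0.128, 0.138 and 0.125 in serum-starved libraries, against 0.0230, 0.0408 and 0.0216 in control libraries, 4.77-fold higher on the log scale. Myl9 to Myl12a was 5.33-fold higher, at 0.281 ± 0.0280 in serum-starved and 0.0533 ± 0.0104 in control cells, and Myl9 to Myl12b 4.73-fold higher, at 1.05 ± 0.111 in serum-starved and 0.224 ± 0.0399 in control cells (SD, n = 3 each). Tagln to Tagln2 was 4.53-fold higher, and Tpm1 to Tpm3 3.45-fold. Tpm1 thus stood above Tpm3 in each serum-starved library (2.14 to 2.51) and below it in each control library (0.606 to 0.711). Myh10 to Myh9 was 2.14-fold and Tmsb10 to Tmsb4x 1.70-fold higher. The ratios below control were Actg1 to Actb, by 1.22-fold, and Flnc to Flna, by 1.52-fold. Of the pairs that overlapped, Cfl2 to Cfl1 was 0.0441 ± 0.00241 in serum-starved and 0.0446 ± 0.00275 in control cells (SD, n = 3 each). Pfn2 to Pfn1 was 0.0487 ± 0.00454 in serum-starved and 0.0510 ± 0.00999 in control cells, and Actn1 to Actn4 was 1.003 ± 0.0477 in serum-starved and 0.932 ± 0.0916 in control cells. Cnn1 overlapped against both Cnn2 and Cnn3.

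**Figure D4:**
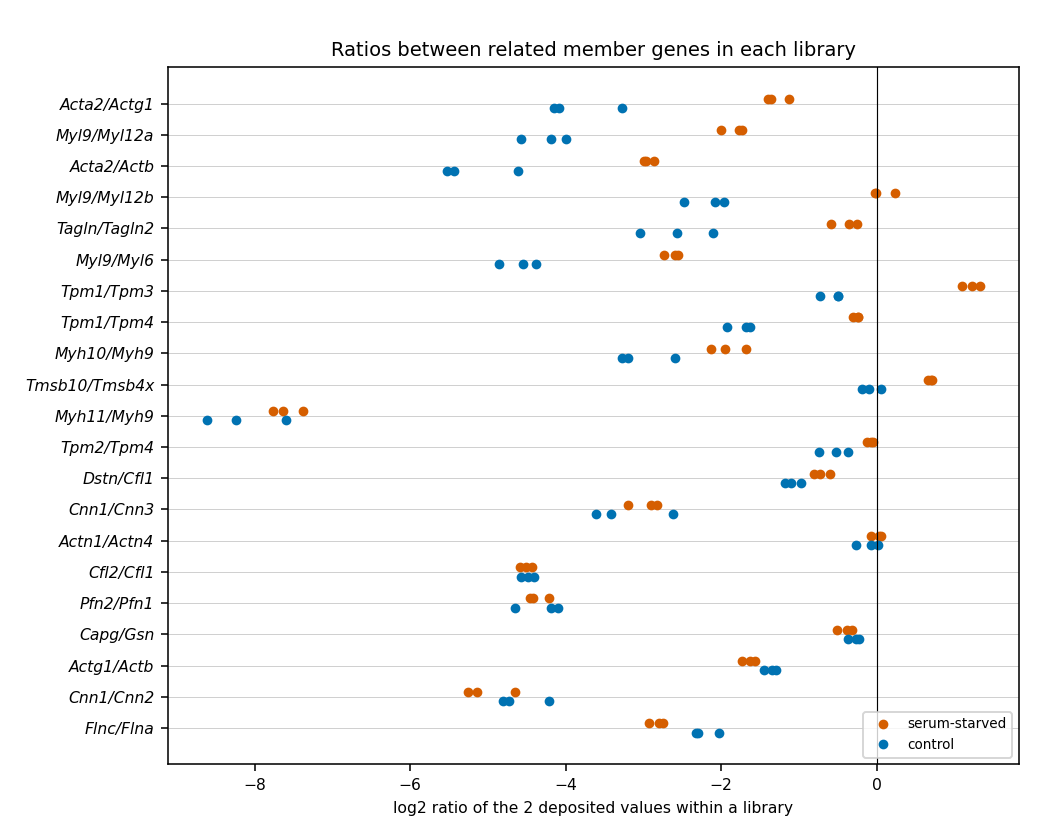
Log2 ratio of the deposited values of 2 related members within each library, with serum-starved libraries (orange) above control libraries (blue) in each row, ordered by the difference of the group means. The upper rows, from Acta2/Actg1 to Tmsb10/Tmsb4x, separate the groups fully, whereas Cfl2/Cfl1, Pfn2/Pfn1 and Actn1/Actn4 overlap.

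None of the 3 cofactors of SRF was called higher. Myocd (gene ID 246297), myocardin, the cofactor specific to smooth and cardiac muscle, had 0.13, 0.20 and 0.25 in serum-starved libraries, against 1.86, 1.71 and 0.96 in control libraries. All serum-starved values lay below all controls, but Myocd failed the filter and had no test; with no filter its log2 fold change was -1.05 ± 0.144 (SE; limma adjusted p = 0.00139). Mkl1 (MRTF-A) had 35.8, 38.9 and 37.8 in serum-starved libraries, against 39.9, 39.1 and 44.97 in control libraries, and did not pass (limma adjusted p = 0.14). Mkl2 (MRTF-B) was low, at 1.34, 2.96 and 1.78 in serum-starved and 1.88, 1.31 and 1.48 in control libraries (limma adjusted p = 0.35).

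The pathway around these genes was described with 5 further lists. Called genes made up 89.5% of those tested among SRF partners and LIM proteins and 57.7% among formins and ARP2/3 genes. The share was 50% for capping and severing partners, 77.8% for bundling proteins and linkers and 72.7% for other myosins. Of all tested genes 61.1% were called, 31.7% higher and 29.4% lower. On the list of SRF partners and LIM proteins, 11 of 19 that were tested rose, 6 fell and 2 missed the threshold (median log2 fold change 0.28, against 0.03 for all tested genes). Pdlim5 and Pdlim7, which tie kinases to alpha-actinin and tropomyosin, rose to 150 ± 22.6 and 71.7 ± 13.9 in serum-starved cells, against 89.6 ± 7.58 and 45.2 ± 2.65 in control cells (SD, n = 3 each; limma adjusted p = 0.000656 and 0.00246). Srf itself, named after its values were seen, had 24.4, 15.4 and 18.5 in serum-starved libraries, against 12.7, 14.04 and 14.3 in control libraries, and rose 1.42-fold (limma adjusted p = 0.0246). The largest falls on that list were in Des and Csrp2. Des, desmin, the intermediate filament of muscle, had 15.5, 10.9 and 12.3 in serum-starved libraries, against 138, 125 and 114 in control libraries. It was 9.73-fold lower (log2 fold change -3.20 ± 0.124 SE; limma adjusted p = 3.25e-07), far outside the spread of either group, in the same libraries in which Acta2, Myl9 and Tpm1 were higher. Csrp2, a LIM protein of smooth muscle, was 2.99-fold lower (limma adjusted p = 3.67e-05).

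Formins and the ARP2/3 complex, which nucleate filaments, were called higher for 3 genes and lower for 12 of 26 tested, and 11 missed the threshold (median -0.13). The formin genes Diaph3 and Diaph1 fell 8.603-fold and 2.13-fold (limma adjusted p = 1.71e-06 and 8.27e-06), whereas Daam1 and Wasl rose 1.60-fold and 1.26-fold (limma adjusted p = 0.00357 and 0.00678). The related formin gene Diaph2 rose 4.44-fold, to a low 2.99 ± 0.874 in serum-starved cells, against 0.673 ± 0.0950 in control cells (limma adjusted p = 0.000219). Diaph2, counted among the higher calls, passed the filter only through the serum-starved libraries.

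Of 18 tested capping and severing partners, 2 rose, 7 fell and 9 did not pass (median -0.13). Coro2b and Svil, a coronin and supervillin, rose 3.98-fold and 3.27-fold, to 5.18 ± 1.12 and 5.45 ± 0.268 in serum-starved cells (SD, n = 3), and Scin, a gelsolin relative, and Coro1c fell 3.64-fold and 2.05-fold. Of 18 tested bundling proteins and cortical linkers, 8 rose, 6 fell and 4 did not pass (median 0.01). Marcks, which tethers actin to the membrane under control of protein kinase C, rose 7.95-fold to 44.5 ± 0.666, against 5.60 ± 1.79 in control cells (limma adjusted p = 2.97e-06). Palld, palladin, a stress fibre scaffold that binds alpha-actinin, rose 2.99-fold to 73.4 ± 8.63, against 24.5 ± 3.18 in control cells (SD, n = 3 each; limma adjusted p = 1.2e-05). Ezr, ezrin, which links actin to the membrane, fell 5.86-fold to 15.8 ± 0.960, against 92.7 ± 15.4 in control cells (limma adjusted p = 1.07e-06), and Synpo fell 1.72-fold. Of 11 tested other myosins, 1 rose, 7 fell and 3 did not pass (median -0.22), with Myo5a and Myo1c, motors of vesicles and membranes, 1.80-fold and 1.36-fold lower and Myo6 1.27-fold higher.

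**Figure D5:**
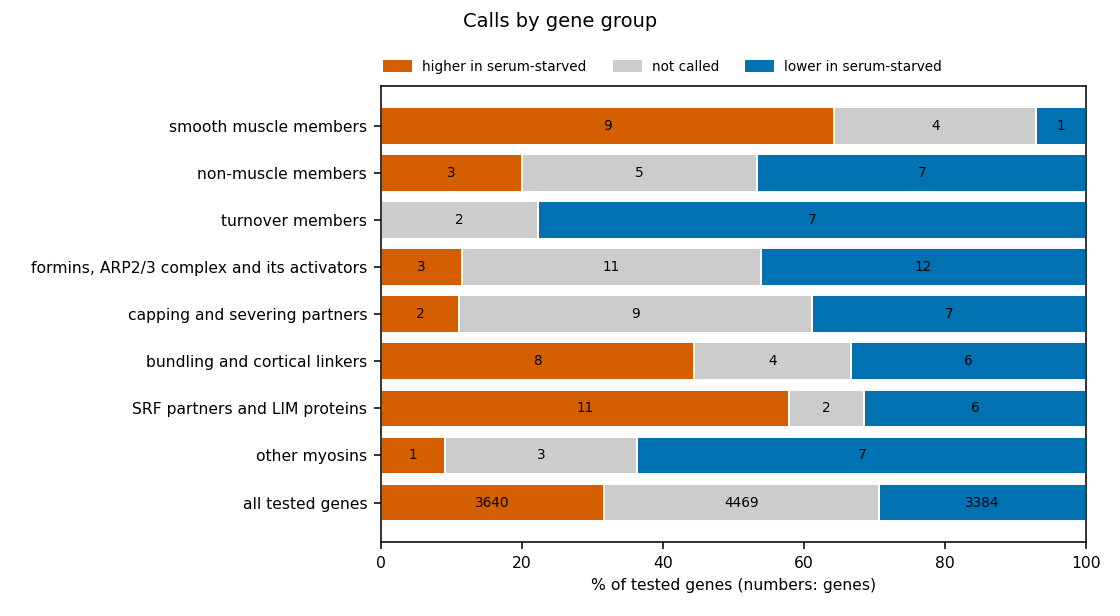
Share of tested genes called higher (orange), not called (grey) and called lower (blue) in serum-starved cells for 3 roles of members, 5 pathway lists and all tested genes, in percent, with the number of genes written in each part. Higher calls are 9 of 14 for smooth muscle members and 11 of 19 for SRF partners and LIM proteins, and lower calls 7 of 9 for turnover members, although with quantile normalization turnover members split into 2 higher and 4 lower.

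Markers of other cell types that a disc culture could hold were read beside these genes. Their calls, like those of the nucleus pulposus markers, stand against 61.1% of all tested genes called. Of 11 smooth muscle and pericyte markers found, 1 rose, 4 fell, 3 did not pass and 3 were not tested, and their summed level was 70.2 to 86.4 in serum-starved and 237 to 284 in control libraries. Rgs5, Notch3 and Ramp1 were at or near 0 in every library, and Des and Cspg4, which carry most of the sum, were lower in serum-starved cells, with Des at 10.9 to 15.5, against 114 to 138 in control cells, and Cspg4 at 36.1 to 39.3, against 96.9 to 118 in control cells. For skeletal muscle, 6 of 7 markers stayed below 1 in every library, Ttn at 0 throughout, and the sum was 6.11 to 7.52 in serum-starved and 6.71 to 8.34 in control libraries, nearly all of it Tnnt3. Endothelial markers summed to 0.66 to 0.87 in serum-starved and 0.79 to 1.37 in control libraries, and macrophage and leukocyte markers to 12.2 to 15.9 in serum-starved and 24.0 to 30.3 in control libraries. Of the 5 macrophage and leukocyte markers, Cd14, which carries most of that sum, fell 2.91-fold, Cd68 and Laptm5 rose 1.73-fold and 4.57-fold, and 2 were not tested. Laptm5 was low, at 1.63 to 1.80 in serum-starved and 0.22 to 0.56 in control libraries. It passed the filter only through the serum-starved libraries. Of 7 fibroblast and annulus markers, 5 rose and 1 fell, with sums of 3858 to 4109 in serum-starved and 2976 to 3422 in control libraries. Most of that sum was Col1a1, at 2697 ± 53.9 in serum-starved and 1799 ± 213 in control cells (SD, n = 3 each). Dcn (decorin), with the largest rise, was at 207 to 286.5 in serum-starved and 16.5 to 44.3 in control libraries. Thy1 fell 3.10-fold, to 297 ± 33.7 in serum-starved cells, against 921 ± 56.8 in control cells (limma adjusted p = 2.98e-06). The part of fibroblast marker levels in the rise of Acta2, Tagln and Myl9 was not tested.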

How the data were processed

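RNA of 6 libraries (3 serum-starved, 3 control) was depleted of ribosomal RNA and sequenced, per the labels' protocols. The authors deposited 1 table per library of decimal values per gene. No unit stands in the headers, and the deposited values were treated as FPKM because they are not whole and sum differently in each library. The submitters' processing notes name bcl2fastq 2.0, HISAT2, StringTie, DESeq2, limma and build mm10, a mouse build, although gene IDs are rat; strand use and the handling of shared reads are not given in the sources used here. No counts were used, so no counting interval is given.

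Genes reaching 1 in 3 or more libraries (11493) were fitted as log2(value + 1) with limma 3.58.1 in R 4.3.3 (treatment only, trended empirical Bayes, 4 residual degrees of freedom). P-values were adjusted over all of them by Benjamini-Hochberg. The log2(value + 1) scale understates changes of low genes. The fit was tried on simulated data in which few genes changed, so that trial does not cover data with 61.1% of genes called. Folds in the text are ratios of mean deposited values. Ratios of gene pairs and the Acta2 share were compared by exact permutation (scipy 1.17.1). Joins used Python 3.11.15 and pandas 2.3.3, and promoters came from RefSeq (GRCr8). Members, roles and lists were chosen with earlier results of these data known, and so were the tests. Every member was named. In each pathway list the text names up to 2 called genes with the largest change per direction provided the higher group's mean reached 5. Srf and Diaph2 were named outside this rule. Sums and shares of families other than actin were added after seeing the values. Protein sequences were not used here, and 1 further pathway list is not reported here.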

Additional observations from a re-analysis of the deposited data

How the results depend on the processing

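Alternatives were a pseudocount of 0.1, a filter at 5 or none, median-ratio scaling, quantile normalization, library weights, no trend, a replicate block and leaving out each library. With one library left out, 11 to 13 members rose and 13 to 17 fell, 7 to 9 smooth muscle genes rose and 1 to 2 fell, 3 non-muscle genes rose and 5 to 9 fell, and 0 to 1 turnover genes rose and 7 fell. The difference in Acta2/Actb was then 2.09 to 2.55 (log2) and that in the Acta2 share 6.69 to 7.40 percentage points. With quantile normalization 5 non-muscle genes and 2 turnover genes rose and 4 turnover genes fell, and Myl6, Tpm4 and Cfl1 changed sign to 0.18, 0.12 and 0.0605. Actb, Flnc and Smtn, called in neither fit, turned to 0.071, 0.0405 and 0.118, and Smtn was 0.0062 with library weights. With one library left out, the uncalled Cnn1 ranged from -0.0265 to 0.229, Smtn from -0.129 to 0.113 and Tgfb1i1 from -0.0514 to 0.259, each on both sides of 0. The cause was not tested. With the filter at 5, 2651 of all genes rose. Quantile normalization put the median of all tested genes at 0.07, against 0.03 as deposited and 0.01 with median-ratio scaling. Smooth muscle genes that rose numbered 7 to 9 under every alternative run, with 5 of the 42 tested members lost to the filter at 5.

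Same-numbered libraries of the 2 groups did not deviate together (correlations of 0.04, -0.16 and 0.10 over genes), so the numbers were not taken as pairs. With the replicate block, 12 members rose and 15 fell, and Tpm2 was no longer called (limma adjusted p = 0.0839). Over all tested members and alternatives, 535 values kept direction and call, 19 lost and 12 gained the call, and 14 changed sign. The unknown depth limits low genes such as Myh11, Myocd and Acta1.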
